A study of Homo sapiens with 18 samples.

Results

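CARM1 knockout cells were compared with control cells in the absence of ER stress, to see which classes of genes differed at the basal level. The libraries were taken by their labels: 3 of vehicle-treated CARM1 knockout A1847 cells and 3 of vehicle-treated control A1847 cells, 6 of the 18 libraries in the study. A1847 is a cell line that the labels give as high-grade serous ovarian cancer. The knockout cells had received a lentiviral vector carrying Cas9 and a single CARM1 guide and were selected with puromycin. Whether the knockout cells were a pool or were grown from 1 clone is not stated, nor is whether the control cells, labelled wild type, carried a vector. Both groups were given vehicle for 8 h, alongside cells given tunicamycin. The mRNA was sequenced from its 3′ ends as single 75 nt reads, and the deposited values were expected counts per gene. The remaining 12 libraries were of tunicamycin-treated cells and of XBP1 knockdown cells and were used only where named.

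CARM1, also known as PRMT4, is an enzyme that adds methyl groups to arginines of histone H3 and of other nuclear proteins, among them p300/CBP, splicing factors and subunits of the SWI/SNF chromatin remodelling complex. It is mostly known as a coactivator that is brought to promoters and enhancers by transcription factors. XBP1s, the transcription factor of the IRE1α arm of the unfolded protein response, turns on genes for the folding, transport and degradation of proteins in the ER.

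CARM1 mRNA was lower, but still readily measured, in the knockout libraries. CARM1 (ENSG00000142453) lies on chromosome 19 of GRCh37 from 10982229 to 11033751. Its level was 168, 164 and 163 CPM (counts relative to the library's total, after scaling by edgeR's TMM factors) in control libraries 1 to 3 and 72.1, 76.2 and 70.5 CPM in knockout libraries 1 to 3. The groups did not overlap, and knockout was lower than control by a log2 fold change of −1.17, with a standard error of 0.0511 (adjusted p 9.6e-12 by edgeR's quasi-likelihood test with Benjamini-Hochberg adjustment over all genes tested). A small edit in the coding sequence can leave the 3′ end of the transcript in place, so that this level does not show how much protein was left.

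The 2 groups of libraries stood far apart. Across genes, log2 CPM correlated at 0.988 to 0.990 between libraries of the same group and at 0.706 to 0.720 between groups. These are correlations across genes, which are not independent replicates. The totals were 12081810 to 13788924 counts per library in control cells and 9367462 to 13917212 in knockout cells. Nothing in the labels says whether replicates came from separate cultures, so that p-values measure only the spread between these libraries. At this group size the lowest p that an exact permutation test can reach for any gene is 0.1. Genotype cannot be told apart from any other way in which the cultured populations differed. In bulk RNA, fewer cells of a kind and less RNA per cell also cannot be told apart.

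The populations differed in marker genes of the tissue they are labelled with. Whether control and knockout cells descended from the same starting culture cannot be told from these libraries. PAX8, a transcription factor of the Müllerian epithelium used to recognise serous carcinoma, had 1, 1 and 0 counts in control libraries and 840, 734 and 497 counts in knockout libraries. Of 8 Müllerian and ovarian carcinoma markers, only MECOM exceeded 3 counts in every control library, while 5 did so in every knockout library. Their summed level was 1.23 to 1.49 CPM (here without TMM scaling) in control and 64.4 to 72.5 CPM in knockout libraries. The summed level of a longer list of 30 Müllerian and ovarian carcinoma genes went the other way. Its 13 tested members summed to 1225 to 1258 CPM in control and 181 to 196 in knockout libraries (with TMM scaling). Most of the control sum lay in the 4 members at a mean log2 CPM of at least 4, all lower in knockout cells. These held 982.9 to 1010 CPM in control and 94.11 to 100.2 in knockout libraries, and MEIS1, MEIS2 and ARID3A, described below, are among them. Of the 13 tested members, 5 were higher and 7 lower in knockout cells, with a median log2 fold change of −1.05. EMX2 and MUC16, the gene for CA125, were at 0 counts in all 6 libraries, WT1 was at 0 in the control libraries and SOX17 did not exceed 1 count. The 8 epithelial markers summed to 333 to 360 CPM in control and 2420 to 2500 in knockout libraries, and the 5 mesenchymal markers to 753 to 819 and 3600 to 3840. The mesenchymal markers were divided, with VIM, CDH2 and FN1 higher in knockout libraries and ZEB1 and TWIST1 lower. ZEB1 had 974 to 1046 counts in control and 315 to 471 in knockout libraries, and TWIST1 had 1948 to 2141 and 195 to 270. The markers of leukocytes, endothelium, melanocytes and hepatocytes stayed at or under 3.42 CPM summed over each list in both groups, and those of neural cells at or under 10.6. Longer lists of all but hepatocyte genes, summed over tested members with TMM scaling, were higher in knockout libraries. Neural genes summed to 169 to 197 CPM in control and 498 to 506 in knockout libraries, with 4 higher and 3 lower of 9 tested. Endothelial genes summed to 7.47 to 8.0 and 22.1 to 25.3 CPM. Melanocyte genes summed to 4.6 to 5.7 and 16.45 to 19.22, and leukocyte genes to 1.09 to 2.7 and 8.08 to 9.93. CD3E and TYR were at 0 counts in every library, and CDH5, VWF and KDR, markers of endothelium, did not exceed 1 count in any of them. The part of these marker differences in the results that follow was not tested.

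Most genes differed between the groups. Of 16137 genes tested, 6266 were higher in knockout cells (38.8%) and 6148 were lower (38.1%) at an FDR of 5%, together 76.9%. The groups did not overlap for 78.4% of all genes tested. The median log2 fold change was −0.02 and its median size 0.75, so that passing the test says little about any one class. A difference of at least 4-fold was therefore also counted, and 2093 genes (13.0%) were higher and 1229 (7.62%) lower by that measure. The 4-fold genes were mostly weakly expressed. Where the mean log2 CPM was under 0, 71.1% differed by at least 4-fold, against 34.3% between 0 and 2, 18.8% between 2 and 4, 8.1% between 4 and 6 and 4.5% above 8. The filter on low counts admits a gene through 1 group alone, and 788 of the genes tested had at most 3 counts in each control library and 384 in each knockout library. When 10 counts were required in every library, 12662 genes were tested, of which 665 were at least 4-fold higher and 420 at least 4-fold lower.

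**Figure D1:**
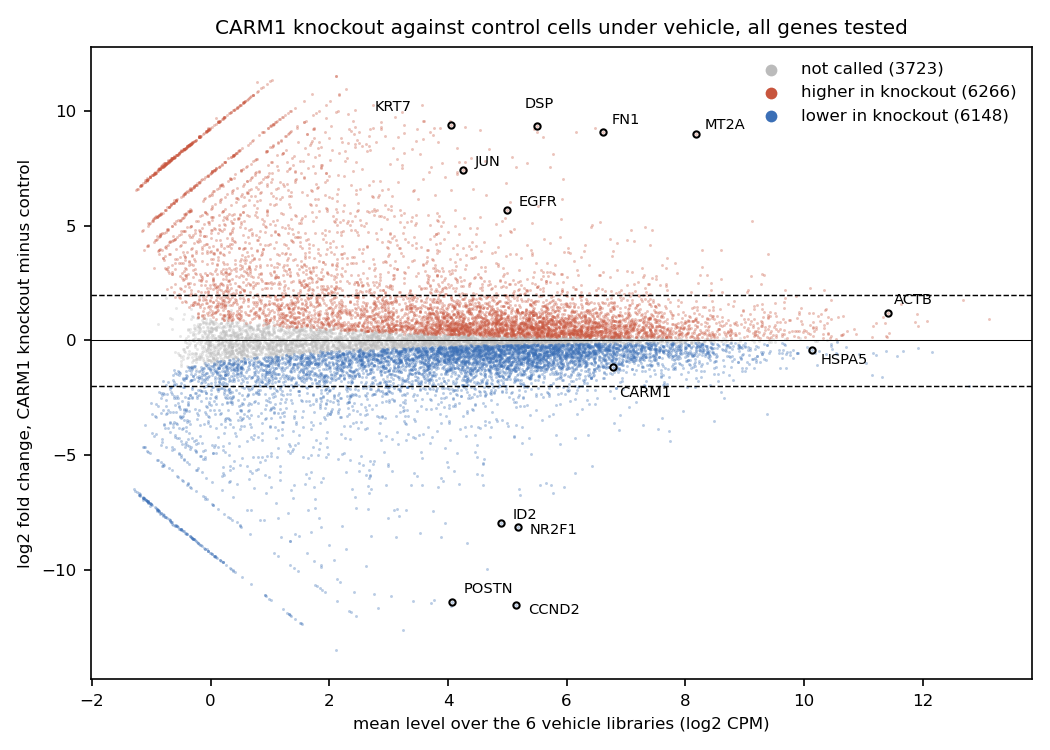
Log2 fold change of knockout over control for every gene tested, against the mean log2 CPM over the 6 vehicle libraries, with the genes called at an FDR of 5% by direction. The 6266 higher and 6148 lower genes lie on both sides of a median of −0.02, and the spread of the fold changes narrows as the level rises.

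Classes of genes were then compared. The share of members past 4-fold depends on level, as given above, and the classes differ in level, so that their shares cannot be ranked against that of all genes tested. Of 7610 genes whose log2 CPM averaged 4 or more, 303 were at least 4-fold higher and 208 lower, together 6.7%. At that level the 4-fold differences were 7 higher and 6 lower of 21 mesenchymal genes, 9 and 5 of 21 matrix glycoproteins, 0 and 7 of 9 HOX genes, 3 and 1 of 12 receptor tyrosine kinases and 5 and 0 of 10 epithelial genes. They were 2 and 0 of 77 cytosolic ribosomal proteins, 0 and 1 of 44 DNA replication genes and 0 of 80 respiratory chain genes. The limit on level was set after the data were seen. Medians here are over the members that passed the filter, and a class is given with the number of its listed genes and of those tested. Scaling by library totals alone moved the median of all genes tested from −0.02 to −0.19, so that class medians within about 0.2 of 0 have no firm direction.

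**Figure D2:**
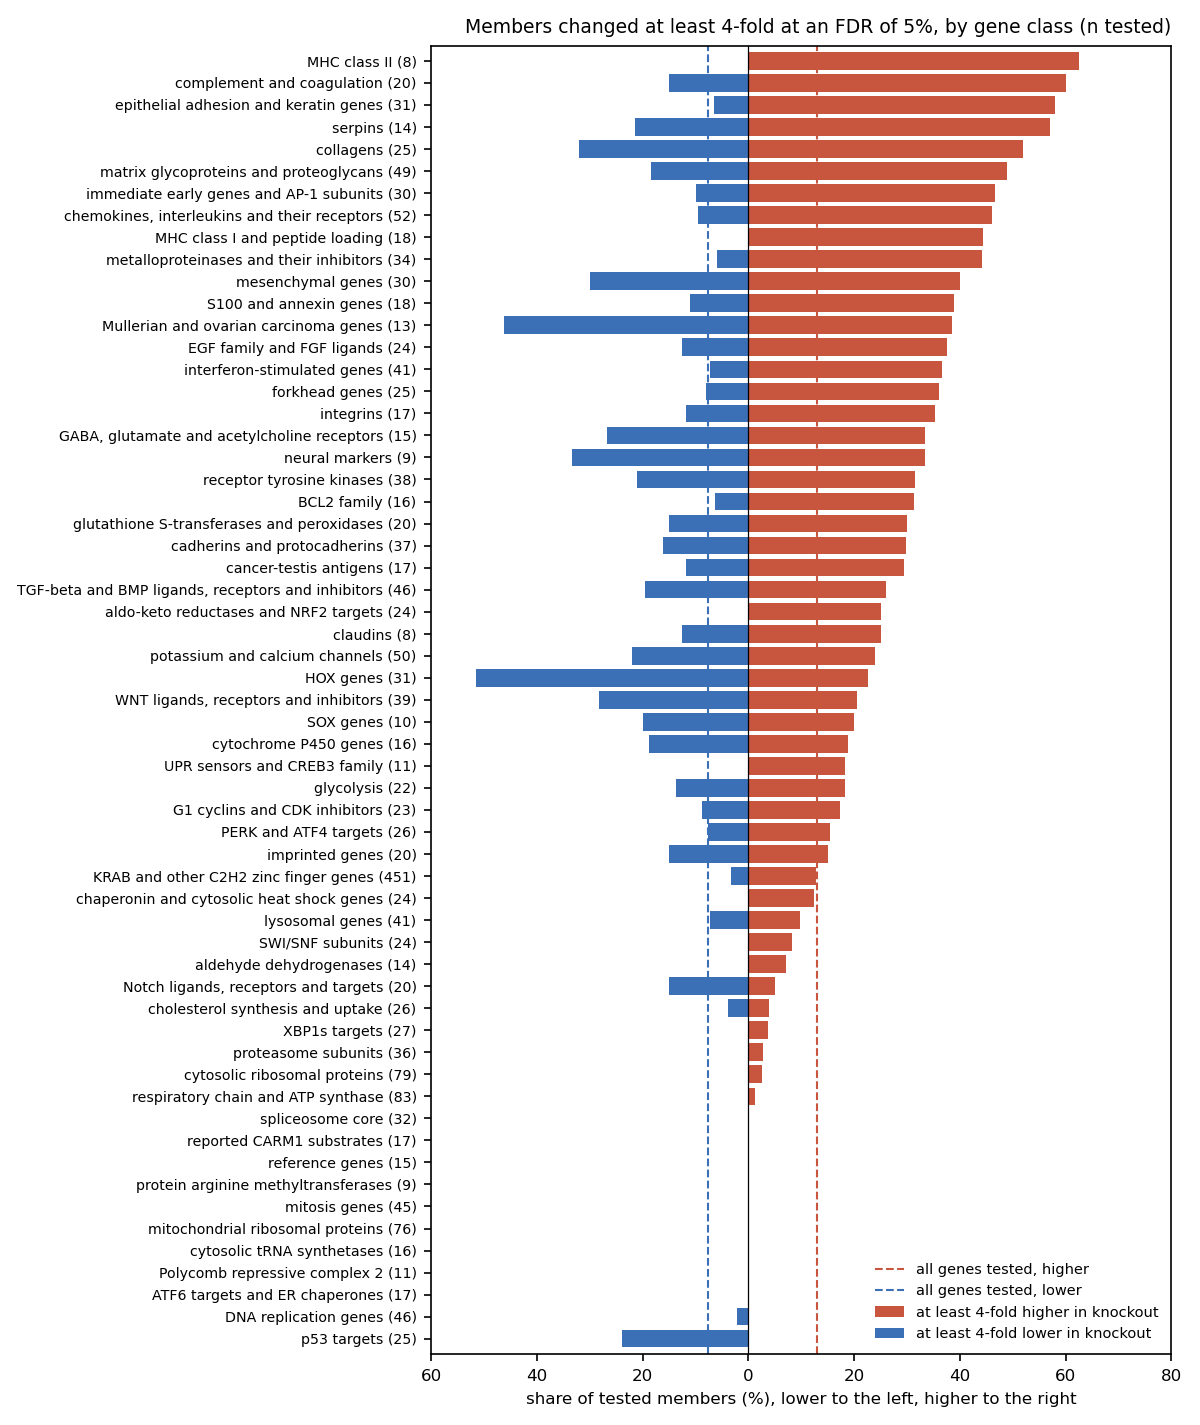
Percent of the tested members of each class that were at least 4-fold higher (right) or lower (left) in CARM1 knockout cells, for classes with at least 8 tested members, beside the 13.0% and 7.62% over all genes tested. Collagens, matrix glycoproteins, serpins, complement and epithelial genes stand high to the right, HOX genes to the left, and ribosomal, respiratory and mitosis genes near 0. The classes are not matched on level, and weakly expressed genes passed 4-fold more often.

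Epithelial keratins and junction proteins were mostly higher in knockout cells. Of 31 tested of 49 listed epithelial adhesion and keratin genes, 23 were higher and 5 lower, 18 of them at least 4-fold higher and 2 at least 4-fold lower, with a median log2 fold change of 2.49. DSP, the desmoplakin that anchors keratin filaments to desmosomes, was at 0.708, 2.92 and 1.77 CPM in control and 1198, 1110 and 1214 CPM in knockout libraries (log2 fold change 9.33). KRT7, the keratin of simple ducts, had 3, 12 and 9 counts in control and 5065, 5166 and 3576 counts in knockout libraries (log2 fold change 9.40). The groups did not overlap for either gene. KRT8 and KRT18, the partner keratins of simple epithelia, were present in control cells too. KRT8 was at 55.1, 62.1 and 61 CPM in control and 720, 745 and 700 CPM in knockout libraries (log2 fold change 3.60). KRT18 rose from 264 to 1456 CPM on average (log2 fold change 2.46), EPCAM from 2.73 to 18.7 CPM (2.76) and SPINT2, an inhibitor of surface serine proteases, from 1.61 to 71.7 CPM (5.45). KRT19 went the other way, with 5 to 16 counts in control libraries and 0 in each knockout library. CDH1, the cadherin of epithelia, stayed low in both groups, with 0 to 3 counts in control and 10 to 23 counts in knockout libraries.

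Mesenchymal genes did not move as a block. Of 30 tested of 33 listed genes, 16 were higher and 13 lower, and 12 and 9 of these by at least 4-fold. The median size of the difference was 3.61 on the log2 scale, against 0.75 over all genes tested. POSTN, the matricellular protein periostin, was at 808, 861 and 808 CPM in control and 0, 0.74 and 0.113 CPM in knockout libraries. FN1, the adhesive glycoprotein fibronectin, was at 1.73, 6.73 and 4.63 CPM in control and 2488, 2283 and 2429 CPM in knockout libraries (log2 fold change 9.09). The groups were thus all but exclusive for each of these genes, in opposite directions. ACTA2, the smooth muscle actin of myofibroblasts, fell from 477 to 5.89 CPM (log2 fold change −6.32). TWIST1, a transcription factor of mesenchymal cells, was at 153, 152 and 146 CPM in control and 19.8, 22.2 and 22 CPM in knockout libraries (−2.82). VIM, which encodes vimentin, rose from 501 to 1325 CPM (1.41) and CDH2, the neural cadherin, from 11.4 to 159 CPM (3.80). NT5E, the surface marker CD73, rose from 0.414 to 253 CPM (9.21). THY1, the surface marker CD90, had 523 to 664 counts in control and 1 to 3 counts in knockout libraries.

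**Figure D3:**
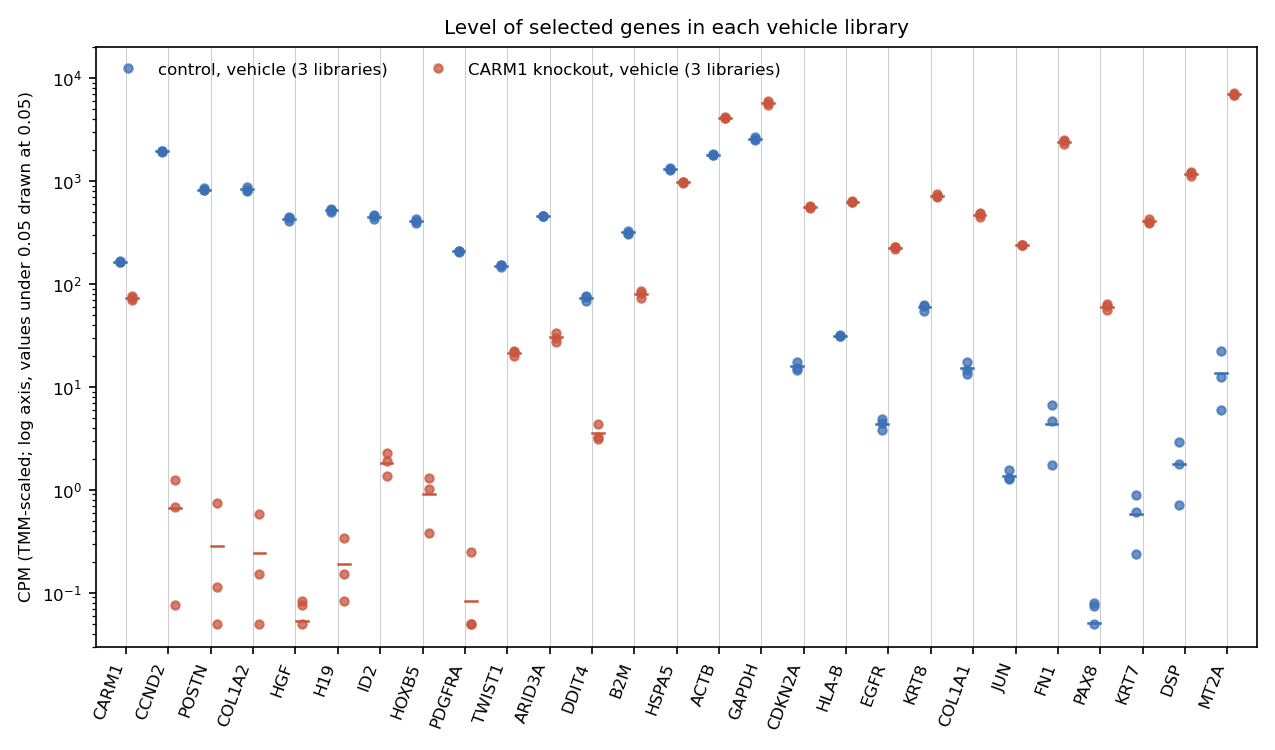
CPM in each vehicle library on a log axis for genes the text names, with control and knockout libraries in separate colours, short lines at the group means, and values under 0.05 CPM drawn at 0.05. The 3 points of a group lie close together for most genes, and the groups are separated in both directions within the mesenchymal, collagen and receptor genes.

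HOX genes had the lowest median of the classes with at least 8 tested members. They set position along the body axis and are arranged in the clusters A to D. Of 31 tested of 39 listed HOX genes, 19 were lower and 10 higher, 16 and 7 of them by at least 4-fold, with a median of −2.18. Of the 15 with 10 counts in every library, 12 were lower and 1 higher. The lower genes lay mainly in clusters A, B and C. HOXB5, on chromosome 17 of GRCh37 from 46668619 to 46671141, was at 432, 412 and 386 CPM in control and 0.381, 1.32 and 1.02 CPM in knockout libraries (log2 fold change −8.85). Its neighbours HOXB9 (154 to 2.08 CPM), HOXB6 (114 to 1.78 CPM) and HOXB3 (76 to 1.39 CPM) were lower as well, and HOXB8 had 466, 457 and 482 counts in control and 1, 0 and 0 in knockout libraries. HOXC6 fell less, from 359 to 48.3 CPM (−2.89). In cluster D, the 5 genes tested were all higher, among them HOXD8 (5.05) and HOXD13 (3.06), named after their values were seen. MEIS1, a cofactor that binds DNA together with HOX proteins, also fell, from 120 to 2.32 CPM (−5.69). It belongs to the list of Müllerian and ovarian carcinoma genes, of which 13 of 30 were tested and 5 were higher and 7 lower. MEIS2 (367 to 38.9 CPM) and ARID3A (455 to 30.2 CPM) of the same list were lower too.

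Forkhead genes had 13 higher and 9 lower members among 25 tested of 45, with a median of 0.76 that became −0.32 where 10 counts were required in every library. FOXL2, a factor of ovarian granulosa cells, fell from 24.3 to 4.52 CPM. Zinc finger genes of the C2H2 type, the largest list, had a median of −0.17, or −0.34 with library totals alone. Of 451 tested of 500, 140 were higher and 188 lower, and 58 were at least 4-fold higher and 15 at least 4-fold lower, beside 13.0 and 7.62% of all genes tested. Among the members at log2 CPM 4 or higher these were 1 and 2. ZNF714 was at 4.07 CPM in control and 266 CPM in knockout cells (log2 fold change 6.01). ZNF22 had at most 3 counts in every control library and a mean of 151 CPM in knockout cells.

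Collagens differed strongly, in both directions. Of 25 tested of 44 listed, 16 were higher and 9 lower, 13 and 8 by at least 4-fold, and the median size was 4.95. Only 7 of the 25 reached 10 counts in every library. The fibrillar collagens went in opposite directions. COL1A1 was at 13.3, 14.7 and 17.6 CPM in control and 476, 484 and 451 CPM in knockout libraries (log2 fold change 4.95). COL1A2, whose product joins that of COL1A1 in type I collagen, was at 803, 824 and 881 CPM in control and 0.153, 0.576 and 0 CPM in knockout libraries (−11.58). COL3A1 had 2785, 3018 and 3403 counts in control and 0, 1 and 1 in knockout libraries. The 2 chains of type I collagen were therefore each high in the group where the other was low. Type VI chains were split likewise, with COL6A3 lower (121 to 1.74 CPM) and COL6A2 higher (3.69 to 51.5 CPM). COL4A1, a basement membrane collagen, had 0, 2 and 1 counts in control and 654, 608 and 448 counts in knockout libraries.

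Matrix glycoproteins and proteoglycans were higher for 28 and lower for 16 of 49 tested of 55, with 24 and 9 past 4-fold and a median of 1.64, which was 0.13 among the 29 members with 10 counts in every library. TGFBI, an adhesive matrix protein, was at 0.581 CPM in control and 447 CPM in knockout cells (log2 fold change 9.55), and THBS1, thrombospondin, at 0.638 and 260 CPM (8.65). Metalloproteinases and their inhibitors had 22 higher and 10 lower members among 34 tested of 63 (median 1.65, and 0.40 with 10 counts in every library). The inhibitors differed in direction: TIMP2 rose from 30.4 to 390 CPM (3.68) while TIMP3 had 498, 555 and 546 counts in control libraries and 0 in each knockout library. Integrins, the receptors for the matrix, had 11 higher and 5 lower members among 17 tested of 26 (median 1.06). ITGA3 and ITGA6, α chains of laminin receptors, rose to 260 CPM (4.03) and 135 CPM (2.97), and ITGAV, an α chain of fibronectin and vitronectin receptors, fell from 218 to 38 CPM (−2.53). Cadherins and protocadherins had 18 higher and 13 lower members among 37 tested of 90, with a median of 0.68 that became −0.38 where 10 counts were required in every library. PCDH10 was at 259, 271 and 230 CPM in control and 1.6, 0.822 and 0.339 CPM in knockout libraries. Serpins, mostly protease inhibitors, had 8 higher and 4 lower members among 14 tested of 35. Where 10 counts were required in every library, these became 2 higher and 3 lower of 7. SERPINB1 had 0 to 1 counts in control and 351 to 594 counts in knockout libraries, and SERPING1, the C1 inhibitor, fell from 99.3 to 8.95 CPM (−3.47).

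Receptors and ligands for growth factors differed in both directions. Of 38 tested of 54 receptor tyrosine kinases, 17 were higher and 17 lower, with a median of 0.11 and a median size of 2.35. The split was even over all genes tested as well, with 38.8% higher and 38.1% lower. By at least 4-fold, 12 were higher and 8 lower, together 52.6%, beside 20.6% of all genes tested, without matching on level. EGFR was at 3.78, 4.49 and 4.9 CPM in control and 229, 219 and 227 CPM in knockout libraries (log2 fold change 5.67), and AXL rose from 25.4 to 724 CPM (4.83). PDGFRA, the receptor for platelet-derived growth factor of connective tissue cells, had 2672, 2776 and 3004 counts in control and 0, 3 and 0 in knockout libraries. DDR2, a collagen receptor, fell from 345 to 3.75 CPM (−6.50), and ERBB4 had 799 to 832 counts in control and 0 to 1 in knockout libraries. HGF and its receptor MET crossed over. HGF had 5538, 5944 and 5995 counts in control and 1, 1 and 0 counts in knockout libraries. MET was at 0.787, 0.673 and 0.612 CPM in control and 65.3, 67.5 and 61.3 CPM in knockout libraries (6.54). Ligand and receptor were thus each confined almost wholly to 1 of the groups.

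EGF and FGF ligands had 13 higher and 6 lower members among 24 tested of 47, with HBEGF, a ligand of EGFR, rising from 3.8 to 44.6 CPM (log2 fold change 3.56) and FGF18 falling from 41.4 to 2.35 CPM (−4.09). WNT ligands, receptors and inhibitors leaned lower, with 21 lower and 16 higher among 39 tested of 60 and a median of −0.59. FZD8, a WNT receptor, fell from 98.6 to 7.09 CPM (−3.77), SFRP1, a secreted inhibitor, had 282 to 316 counts in control libraries and 0 in each knockout library, and DKK3 rose from 2.23 to 84.4 CPM (5.24). TGF-β and BMP genes were balanced, with 22 higher and 21 lower among 46 tested of 65 and a median of −0.06. Where 10 counts were required in every library these became 12 higher and 17 lower of 32, with a median of −0.32. INHBA and INHBB, the β chains of activins, were high in knockout cells, INHBA at 0.403 against 144 CPM and INHBB with 0 to 2 against 322 to 430 counts. The ID genes, inhibitors of basic helix-loop-helix factors and targets of BMP signals, were low there: ID2 was at 463, 455 and 431 CPM in control and 1.37, 1.89 and 2.26 CPM in knockout libraries (−7.97), ID3 fell from 826 to 53.6 CPM (−3.95) and ID4 from 101 to 0.573 CPM (−7.40). GREM1, a BMP antagonist, had 0 to 1 counts in control and 347 to 504 in knockout libraries. Of the Notch genes, 8 were higher and 7 lower among 20 tested of 25, NOTCH3 falling from 42.3 to 2.11 CPM (−4.34).

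Genes of antigen presentation and innate defence were mostly higher in knockout cells, with B2M as an exception. Of 18 tested of 19 genes of MHC class I and peptide loading, 14 were higher and 4 lower, with a median of 1.44, or 8 and 4 of 12 with a median of 0.70 where 10 counts were required in every library. HLA-B rose from 31.4 to 631 CPM (log2 fold change 4.33) and HLA-C fell from 71.3 to 32 CPM (−1.15). HLA genes are alike in sequence and vary between people, so that reads may have been split between them or lost in ways that cannot be seen here. B2M, the light chain shared by the class I molecules, was at 308, 315 and 329 CPM in control and 84.7, 81.3 and 73.1 CPM in knockout libraries (−1.99). Of the MHC class II genes, 7 of 8 tested of 12 were higher and none lower, all at low levels except HLA-DRB1 (1.81 to 62.9 CPM). Interferon-stimulated genes had 26 higher and 9 lower members among 41 tested of 48, with a median of 1.12, or 0.42 among the 29 with 10 counts in every library. IFITM2, which restricts virus entry, rose from 62.2 to 606 CPM (3.28) and BST2, tetherin, from 5.9 to 71.5 CPM (3.60), while IFIT1 fell from 44.7 to 2.41 CPM (−4.23). Chemokines, interleukins and their receptors had 32 higher and 10 lower members among 52 tested of 142, of which 18 reached 10 counts in every library. IL18, a cytokine matured by the inflammasome, was at 0.509 CPM in control and 218 CPM in knockout cells (8.70), and IL32 at 0.523 and 113 CPM (7.69). IL7R, a cytokine receptor of lymphocytes, was at 0.922 and 528 CPM (9.17). Complement and coagulation genes had 13 higher and 4 lower members among 20 tested of 31, F3, tissue factor, rising from 0.594 to 382 CPM (9.26) and C5, a complement component, falling from 84.3 to 1.36 CPM (−5.90).

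Metallothioneins and S100 proteins were mostly higher in knockout cells, while immediate early genes were more divided. Metallothioneins bind zinc and copper, and all 5 tested of the 11 listed were higher, 5 by at least 4-fold, with a median of 9.0, or 8.53 with the member at the floor set to its lower bound. MT2A was at 5.9, 22.1 and 12.5 CPM in control and 6896, 7149 and 6882 CPM in knockout libraries (log2 fold change 9.0), and MT1E rose from 4.29 to 2637 CPM (9.25). The MT1 genes are near copies of each other, so that the split of reads among them is uncertain. S100 and annexin genes had 12 higher and 2 lower members among 18 tested of 30 (median 1.15), S100A6 rising from 2.08 to 1137 CPM (9.07), S100A10 from 3.75 to 724 CPM (7.57) and ANXA1 from 1.35 to 328 CPM (7.94). Immediate early genes and AP-1 subunits had 17 higher and 10 lower members among 30 tested of 34 (median 1.26), or 13 and 9 of 24 (median 0.64) with 10 counts in every library. Of their 16 members at a mean log2 CPM of at least 4, 8 were higher and 6 lower. JUN was at 1.26, 1.57 and 1.29 CPM in control and 237 CPM in each knockout library (7.42), FOSL1 rose from 1.35 to 251 CPM (7.53), and DUSP1, a phosphatase for MAP kinases, from 1.82 to 59.4 CPM (5.03). Among 24 tested of 27 aldo-keto reductases and NRF2 targets, 16 were higher and 5 lower (median 0.53), with FTH1 and FTL, the chains of ferritin, both higher by 2.18 and TXN, thioredoxin, by 2.49. GPX1, a glutathione peroxidase, had 1, 9 and 14 counts in control and 3697, 3855 and 2592 counts in knockout libraries.

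Genes of DNA replication and of mitosis differed for 82.6% and 82.2% of members, beside 76.9% of all genes tested. Their median sizes were 0.5 and 0.49. Over all genes at a mean log2 CPM of at least 4 the share was 83.8% and the median size 0.56, so that neither sets these classes apart. DNA replication genes were mostly lower: 28 were lower and 10 higher of 46, all of them tested, and 1 by at least 4-fold, with a median of −0.40. MCM10, which loads replication factors, fell from 129 to 53.5 CPM (log2 fold change −1.27), while TK1, thymidine kinase, rose from 102 to 287 CPM (1.5). Mitosis genes were mostly higher: 29 of 45 were higher and 8 lower, none by 4-fold, with a median of 0.40 (0.24 with library totals alone). ANLN, a protein of the cleavage furrow, rose from 65.6 to 225 CPM (1.78) and CENPF, a kinetochore protein, fell from 795 to 313 CPM (−1.35). G1 cyclins and CDK inhibitors had a larger median size over all members. Of 23, all tested, 12 were higher and 7 lower, 4 and 2 of them by at least 4-fold, with a median size of 1.05. Over the 18 members at a mean log2 CPM of at least 4 the median size was 0.64 and 77.8% were called, beside the 0.56 and 83.8% given above. CCND2, on chromosome 12 of GRCh37 from 4378937 to 4414519, was at 1966, 1934 and 1920 CPM in control and 0.0763, 1.23 and 0.677 CPM in knockout libraries (−11.53). CCND1 rose from 190 to 815 CPM (2.10) and their partner kinase CDK6 from 7.16 to 252 CPM (5.14). CDKN2A, which encodes the CDK inhibitor p16 and also ARF, was at 14.7, 17.5 and 15.1 CPM in control and 564, 575 and 545 CPM in knockout libraries (5.15).

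Target genes of p53 were mostly lower, 17 of 25 with 5 higher, and with a median of −0.70. Together 88.0% were called, beside 76.9% of all genes tested. Where 10 counts were required in every library, 14 were lower and 5 higher of 22, with a median of −0.54. By at least 4-fold, 6 of the 25 were lower and 0 higher (24.0%, beside 20.6% of all genes tested). Among the 14 members at a mean log2 CPM of at least 4, 1 was at least 4-fold lower (7.1%, beside 6.7% of all genes at that level). BBC3, the pro-apoptotic PUMA, was at 43.4, 47.1 and 42.9 CPM in control and 6.1, 6.83 and 6.77 CPM in knockout libraries (log2 fold change −2.76). SESN2 fell from 99.6 to 35.8 CPM (−1.47) and TIGAR from 30.4 to 12 CPM (−1.33). GADD45A, also a target of other stress pathways, rose from 31 to 108 CPM (1.80). CDKN1A, the CDK inhibitor p21 and the best known target of p53, was named after its values were seen: it was at 29.6 ± 2.96 CPM in control and 29.6 ± 2.38 CPM in knockout cells (SD, n = 3), with a log2 fold change of 0.00 (standard error 0.0941). BCL2 family genes had 8 higher and 6 lower members among 16 tested of 18. BCL2L1, the pro-survival BCL-XL, rose from 10.4 to 51.4 CPM (2.30), and PMAIP1, the pro-apoptotic NOXA, had 0, 1 and 1 counts in control and 630, 524 and 385 counts in knockout libraries.

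Genes for protein synthesis, protein degradation and respiration mostly differed by little, while glycolysis and reference genes differed more. Cytosolic ribosomal proteins were higher for 60 and lower for 10 of 79 tested of 81, with a median of 0.35 (0.18 with library totals alone) and 2 members past 4-fold. RPS18 was at 373, 376 and 813 CPM in control and 2046, 2825 and 2645 CPM in knockout libraries (log2 fold change 2.26), with control library 3 above the other two. RPS10 rose from 1843 to 5542 CPM (1.59) with little spread. Ribosomal protein genes have many processed copies in the genome, so that their counts are uncertain. Mitochondrial ribosomal proteins were divided evenly, with 25 higher and 27 lower of 76 and a median of −0.03. Proteasome subunits (17 higher and 10 lower of 36 tested), the respiratory chain with ATP synthase (42 and 27 of 83) and glycolysis (11 and 10 of 22) had medians of 0.08, 0.15 and 0.12, each of which turned negative with library totals alone. Of the glycolysis genes, 4 were at least 4-fold higher and 3 at least 4-fold lower, with a median size of 1.0, against 0.38 for proteasome subunits and 0.44 for the respiratory chain. Cytosolic tRNA synthetases (4 higher and 11 lower of 16) and the spliceosome core (7 and 19 of 32) leaned lower, at −0.25 and −0.27 (−0.42 and −0.43 with library totals alone). Chaperonin and cytosolic heat shock genes had 7 higher and 16 lower of 24 tested, HSP90AA1 rising from 3572 to 12084 CPM (1.76). HSPA1A rose from 0.542 to 349 CPM and HSPA1B from 27.4 to 92.3 CPM, and these nearly identical genes share reads. Cholesterol genes (11 higher and 10 lower of 26) were balanced, and became 8 higher and 13 lower with library totals alone. Genes often taken as references did not stay level: of 15, 8 were higher and 7 lower with a median size of 0.97, ACTB by 1.19 and GAPDH by 1.13 higher on the log2 scale. TFRC, the transferrin receptor, fell from 150 to 48.3 CPM (−1.63), and PPIA rose from 2484 to 2839 CPM (0.19, or 0.03 with library totals alone, where it did not pass the test).

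Genes around CARM1 itself differed in both directions. Of 9 tested of 10 listed protein arginine methyltransferases, 2 were higher and 5 lower, CARM1 among the latter, and none differed by 4-fold. PRMT2 rose from 120 to 227 CPM (log2 fold change 0.92) and PRMT5, which makes the symmetric form of the mark, from 112 to 167 CPM (0.58). PRMT1, the main enzyme for the asymmetric form, fell from 447 to 300 CPM (−0.57) and PRMT6 from 28 to 14.3 CPM (−0.98). Of 17 genes for reported CARM1 substrates, 6 were higher and 7 lower with a median of 0.09, which became −0.08 with library totals alone, and a median size of 0.91 that lay above the 0.75 over all genes tested. EP300 and CREBBP, histone acetyltransferases, fell from 232 to 104 CPM (−1.16) and from 99.4 to 43.5 CPM (−1.19). SMARCC1, the SWI/SNF subunit BAF155, was at 470 CPM in control and 500 CPM in knockout cells (0.09, adjusted p 0.132 by edgeR's quasi-likelihood test with Benjamini-Hochberg adjustment). Its call depended on the fit: without control library 2 the value was 0.16 and passed in edgeR's test (adjusted p 0.0145), as it did with DESeq2's size factors (0.13, adjusted p 0.0415) and in 1 edgeR fit over 18 libraries (0.14, adjusted p 0.0118). It also passed by DESeq2's Wald test (0.13, adjusted p 0.0365), and it was −0.08 and did not pass with library totals alone. Of 24 tested of 25 SWI/SNF subunits, 14 were lower and 7 higher, with a median of −0.29 (−0.46 with library totals alone) and 2 members at least 4-fold higher. SMARCA2, the ATPase BRM, was at 2.52, 3.29 and 2.18 CPM in control and 42.4, 41.9 and 46.5 CPM in knockout libraries (4.03), and ARID1B rose from 13.8 to 52.5 CPM (1.92). Of 11 tested genes of Polycomb repressive complex 2, which methylates lysine 27 of histone H3, 6 were higher and 3 lower, EZH2 rising from 148 to 260 CPM (0.81) and RBBP4 falling by 0.92 on the log2 scale.

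The lists of the unfolded protein response were compared without stress. ATF6 targets and ER chaperones were mostly lower, 12 of 17 with 5 higher and none by 4-fold, and their median was −0.44 (−0.60 with library totals alone). HSPA5, the ER chaperone BiP, was at 1304, 1323 and 1265 CPM in control and 969, 964 and 968 CPM in knockout libraries. Its log2 fold change was −0.42, with a standard error of 0.0376 (adjusted p 5.33e-08 by edgeR's quasi-likelihood test with Benjamini-Hochberg adjustment). CRELD2, an ER protein with disulfide isomerase activity, was at 80.6, 81.2 and 76.6 CPM in control and 26.9, 31.6 and 28.7 CPM in knockout libraries (−1.45). SDF2L1 and HYOU1, which assist BiP, fell from 147 to 59.2 CPM (−1.31) and from 138 to 79.3 CPM (−0.80). HERPUD1, of ER-associated degradation, rose from 26.2 to 47 CPM (0.84), so that the list did not move as 1 unit. XBP1s targets were balanced, with 10 higher and 10 lower of 27 and a median of 0.05, or 7 higher and 13 lower with a median of −0.12 with library totals alone. The lists share DNAJB11 and PDIA4. SSR3 and SSR1, subunits of a complex associated with the translocon, through which proteins enter the ER, were higher. SSR3 was at 357, 336 and 346 CPM in control and 1011, 951 and 1043 CPM in knockout libraries (1.53) and SSR1 at 135 against 334 CPM (1.30). SEC24D, a coat protein of vesicles that leave the ER, rose from 6.21 to 15.9 CPM (1.36), and SEC11C, of the signal peptidase, fell from 52.6 to 22 CPM (−1.25). XBP1 itself was at 52, 43.9 and 44.2 CPM in control and 29.8, 40.6 and 29.6 CPM in knockout libraries (−0.48), and DNAJB9, a BiP cochaperone, at 6.77, 8.52 and 7.35 against 4.88, 3.87 and 4.17 CPM (−0.80), in neither case with overlap.

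Targets of PERK and ATF4, the arm that limits translation and turns on amino acid supply, were mostly higher, 18 of 26 tested of 28 with 8 lower and a median of 0.34, or 14 higher and 8 lower with a median of 0.17 with library totals alone. PPP1R15A, the phosphatase subunit GADD34 that restores translation, was at 4.33, 5.53 and 6.4 CPM in control and 68, 76.3 and 69.6 CPM in knockout libraries (log2 fold change 3.71). SLC7A11, the cystine transporter, rose from 8.08 to 73.6 CPM (3.19) and STC2, stanniocalcin, from 21.1 to 118 CPM (2.48). DDIT4, an inhibitor of mTORC1, was the reverse, at 75.6, 68.6 and 74.1 CPM in control and 3.13, 4.36 and 3.27 CPM in knockout libraries (−4.33). Among 11 tested of 13 sensors and CREB3 family factors, 5 were higher and 5 lower. CREB3L1 and CREB3L2, transcription factors held in the ER membrane, rose from 15.9 to 102 CPM (2.68) and from 21.5 to 102 CPM (2.24), while MBTPS2, the protease that releases such factors in the Golgi, fell from 25 to 9.3 CPM (−1.44). ERN1, which encodes IRE1α, rose from 8.32 to 12.3 CPM (0.56). Of the other sensors, named after their values were seen, EIF2AK3, which encodes PERK, was at 11.3 and 8.3 CPM (−0.45, passing in edgeR's test but not in DESeq2's Wald test, where the value was −0.41 with an adjusted p of 0.0674), and ATF6 was at 39.3 and 38.9 CPM.

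**Figure D4:**
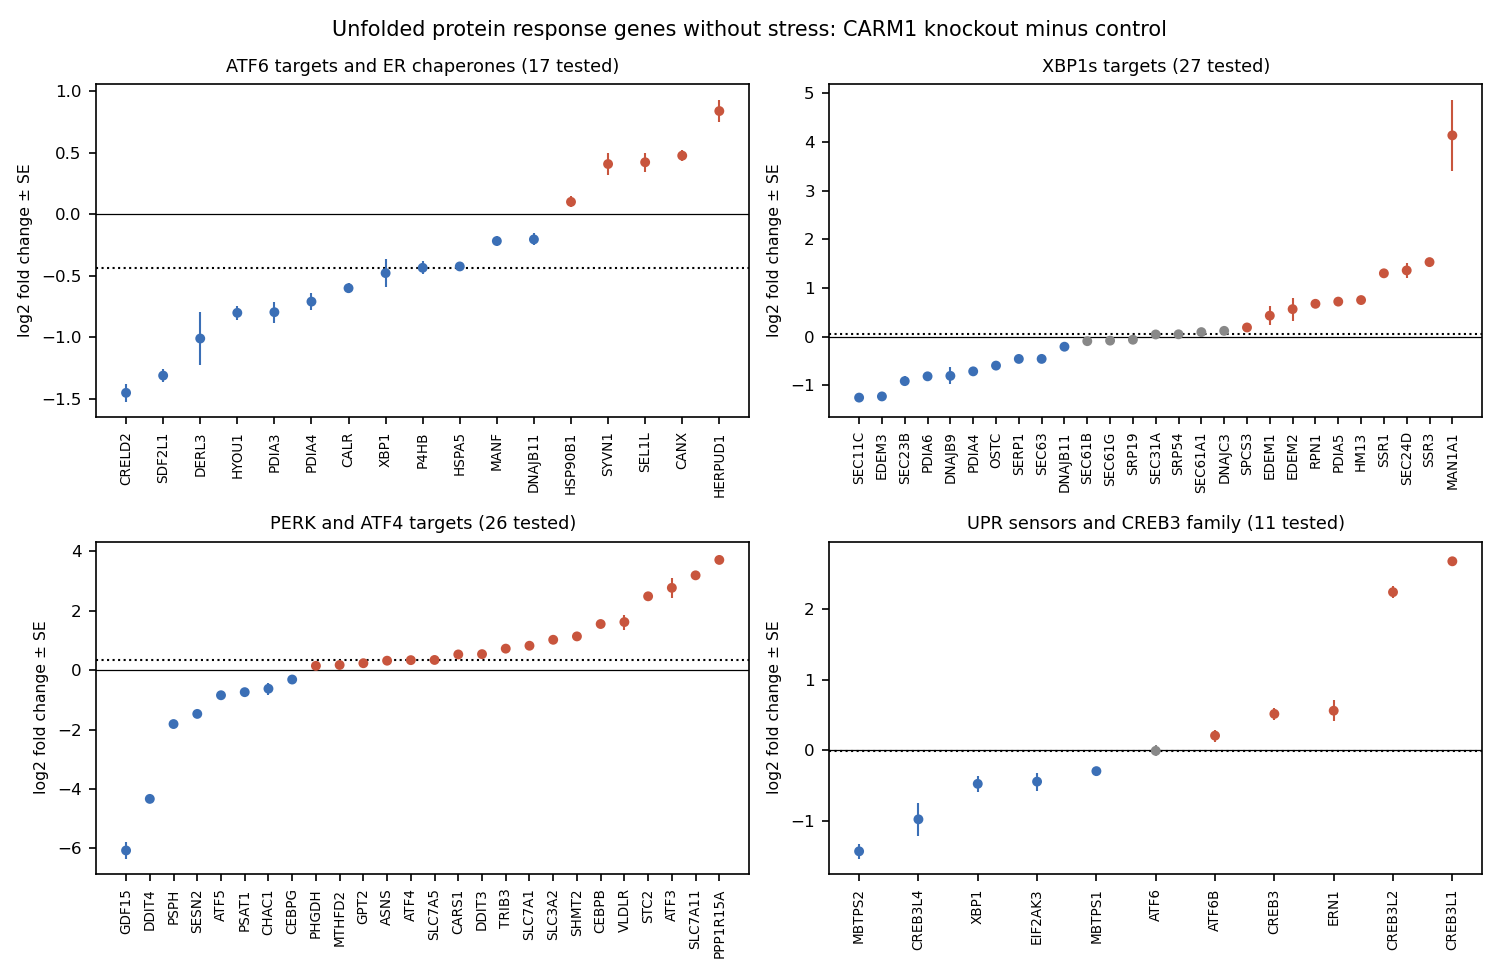
Log2 fold change of knockout over control under vehicle for each tested member of the 4 unfolded protein response lists, with bars of 1 standard error and the median of each list as a dotted line. The medians are −0.44 for ATF6 targets and ER chaperones, 0.05 for XBP1s targets, 0.34 for PERK and ATF4 targets and −0.01 for sensors, and every list has members on both sides of 0.

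The promoters of the ER chaperone genes are shown because most members of that list, 12 of 17, were lower and because XBP1s and ATF6 are known to bind an element in them. The ER stress response element was searched as CCAAT, any 9 bases and CCACG on both strands, in the 250 bases before and 50 bases after each start site of RefSeq on GRCh38.p14. Capitals mark the element.
HSPA5, chr9:125241294-125241593, minus strand: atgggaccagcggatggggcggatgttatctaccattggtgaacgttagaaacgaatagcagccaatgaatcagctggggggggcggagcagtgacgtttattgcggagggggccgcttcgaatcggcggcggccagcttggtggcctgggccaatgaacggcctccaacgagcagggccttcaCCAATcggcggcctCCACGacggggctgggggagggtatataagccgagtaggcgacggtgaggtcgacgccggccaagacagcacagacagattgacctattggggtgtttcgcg
CRELD2, chr22:49918384-49918683, plus strand: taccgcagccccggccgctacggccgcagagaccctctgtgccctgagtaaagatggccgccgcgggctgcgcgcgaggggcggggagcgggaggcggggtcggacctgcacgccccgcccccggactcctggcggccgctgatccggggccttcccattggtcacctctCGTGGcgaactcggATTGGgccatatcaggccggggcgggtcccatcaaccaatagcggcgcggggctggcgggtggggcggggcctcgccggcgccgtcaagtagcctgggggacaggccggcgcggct
HSP90B1, chr12:103930160-103930459, plus strand: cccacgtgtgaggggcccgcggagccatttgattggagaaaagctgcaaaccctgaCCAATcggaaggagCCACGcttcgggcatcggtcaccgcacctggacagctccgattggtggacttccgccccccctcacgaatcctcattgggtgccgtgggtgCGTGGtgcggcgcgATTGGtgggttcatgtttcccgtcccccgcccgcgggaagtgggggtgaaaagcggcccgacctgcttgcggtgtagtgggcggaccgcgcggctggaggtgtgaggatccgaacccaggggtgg
In CRELD2 and in the second of the 2 elements of HSP90B1 the element reads on the other strand. HSP90B1, the ER chaperone GRP94, was named after its values were seen, as the member with 2 elements: it was at 811 CPM in control and 870 CPM in knockout cells. Its log2 fold change of 0.10 passed narrowly (adjusted p 0.0481 by edgeR's quasi-likelihood test with Benjamini-Hochberg adjustment). It was −0.07 with library totals alone, and it did not pass with upper quartile normalization (0.07, adjusted p 0.175 in edgeR's test), with the replicate block (0.10, adjusted p 0.0703), or when control library 3 or any knockout library was left out (0.08 to 0.12). CALR, calreticulin, and CANX, calnexin, named for the same reason, also hold the element, and CALR fell by 0.60 while CANX rose by 0.48 on the log2 scale. The same letters were thus present in promoters of genes that were higher and of genes that were lower. The element was found in 6 of 15 genes of the ER chaperone list, in 16 of 11295 tested genes matched to a promoter (0.142%), in 5 of 4597 genes that were higher (0.109%) and in 8 of 4396 that were lower (0.182%). The core TGACGTG, on either strand, was found in 3.19% of tested genes, in 3.28% of higher genes, 3.32% of lower genes and 2.74% of those not called. A match of letters is a description and does not show binding.

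Well-expressed genes (mean log2 CPM 5 or higher) with large fold changes, not named so far, included LY6K (1.84 to 1121 CPM, log2 fold change 9.21), ANKRD1 (3.07 to 1676 CPM, 9.08) and OXTR, the oxytocin receptor (2.19 to 1033 CPM, 8.87). Those that fell included the transcription factors NR2F1 (600 to 2.06 CPM, −8.15), TBX2 (381 to 3.59 CPM, −6.73) and DLX2 (420 to 5.13 CPM, −6.32), and also PCDH9 (554 to 5.31 CPM, −6.66) and CRABP2, a carrier of retinoic acid (570 to 6.61 CPM, −6.41).

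A set of genes was found in only 1 genotype, with at most 3 counts in each library of one group and a mean of at least 10 CPM in the other. There were 194 such genes in knockout cells (1.2% of genes tested), 168 of them protein coding and spread over 23 chromosomes, and 72 in control cells (0.446%), 61 protein coding on 19 chromosomes. The highest levels in knockout cells were of MYEOV (163 CPM), ZNF22 (151 CPM), SRGN, the proteoglycan serglycin (119 CPM), and CASP4, an inflammatory caspase (102 CPM). In control cells they were of H19, an imprinted noncoding RNA (517 CPM), HGF (429 CPM), COL3A1 (225 CPM), PDGFRA (207 CPM), JAM3, a junction adhesion molecule (162 CPM), and LIN28B, an RNA-binding protein of stem cells (146 CPM). H19 had 6580, 7201 and 7296 counts in control and 2, 1 and 3 counts in knockout libraries.

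**Figure D5:**
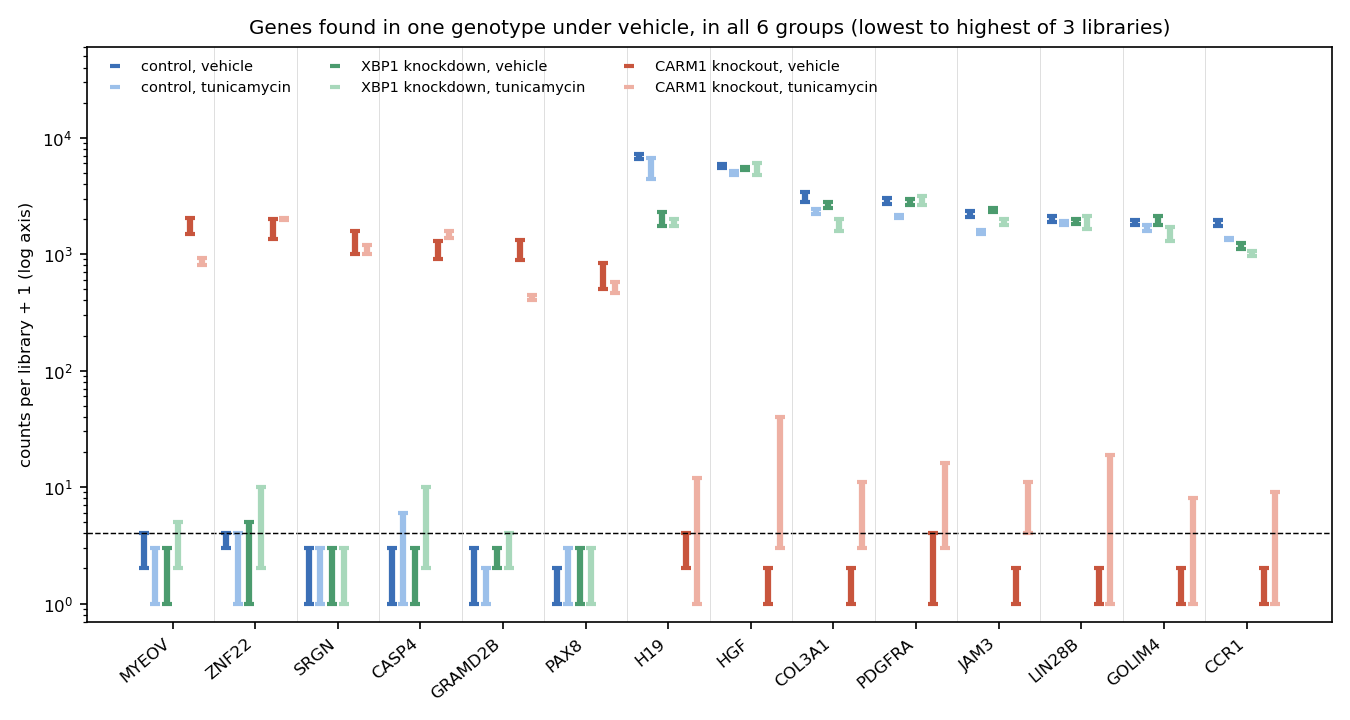
Counts per library plus 1, on a log axis, of genes found in 1 genotype only under vehicle, as bars from the lowest to the highest of 3 libraries in each of the 6 groups of the study, with a dashed line at 3 counts. Under vehicle the knockout-only genes lie at or under the line in control cells and the control-only genes in CARM1 knockout cells. The XBP1 knockdown bars lie on the side of control cells. For H19 they are lower, at 1748 to 2314 counts against 6580 to 7296 in control cells under vehicle. CCR1 is lower likewise, at 1106 to 1249 against 1749 to 1960 counts.

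The libraries that took no part in choosing these genes held most of the same pattern. Of the 194 knockout-only genes, 193 exceeded 3 counts in all 3 tunicamycin-treated knockout libraries, 166 stayed at or under 3 in every tunicamycin-treated control library and 149 in every XBP1 knockdown library. Of the 72 control-only genes, all 72 exceeded 3 counts in every tunicamycin-treated control library and every XBP1 knockdown library, and 42 stayed at or under 3 in all tunicamycin-treated knockout libraries. For 136 of the 194 and 42 of the 72, every one of the other 12 libraries lay on the side of its genotype. The remaining genes did not follow in every library. All were chosen by their difference between knockout and control cells under vehicle, so that nothing is read from this about the libraries as a whole.

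The differences were spread over the genome and over kinds of genes. Protein-coding genes were called for 80.4% of 13065 tested. Long noncoding RNAs leaned lower, with 410 higher and 659 lower of 1661 and a median of −0.30. Against −0.02 over all genes, median log2 fold changes by chromosome ran from −0.23 on X to 0.50 on chromosome 8, where 308 genes were higher and 131 lower of 557. Chromosome 6 had a median of 0.31, chromosomes 11 and 20 of 0.22, chromosome 1 of −0.20 and chromosome 22 of −0.22.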

How the data were processed

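mRNA was sequenced from its 3′ ends in 18 libraries, of which 6 were compared here, 3 per genotype, grouped as labelled. The authors aligned the reads to hg19 (bowtie2). What they deposited are RSEM's expected counts for each Ensembl gene, as whole numbers without normalization. The annotation release and any filter are not given in the sources used here. Estimated counts of near-identical genes depend on how RSEM divided shared reads. No column was left unmapped. Symbols and positions on GRCh37 (GENCODE 44 lifted) were found for 55501 of 57736 genes, and rows without a symbol held 1.445 to 1.921% of the counts.

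Computations used R 4.3.3, edgeR 4.0.16, limma 3.58.1 and DESeq2 1.42.0. Counts were filtered by filterByExpr (minimum count of 10), normalised by TMM, with factors of 1.05 to 1.07 in control and 0.940 to 0.948 in knockout libraries, and tested by edgeR's quasi-likelihood F test over the 6 libraries, with Benjamini-Hochberg adjustment over all 16137 genes and calls at 0.05. CPM are relative to the library total times its TMM factor, except in marker sums, which use the total alone. Standard errors were derived from the F statistic and the log2 fold change. Where no library of a group exceeded 3 counts, the gene was held to be at the floor there and is given by its counts. Chi-square per degree of freedom between replicates was 1.92 to 5.79, above counting error alone, so that errors come from the replicates and no library was a copy of another. Counting intervals are not given.

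The 66 gene classes and the rule for naming genes were chosen with earlier results of these data known. Named genes were CARM1, XBP1, HSPA5 and DNAJB9, per class up to 4 called members with the largest fold change at a mean log2 CPM of at least 3, members found in 1 genotype only, the 10 highest and lowest fold changes at a mean log2 CPM of at least 5, the genes found in 1 genotype only with the highest levels, and marker and reference genes. HOXC6, HOXD8, HOXD13, MET, HLA-C, CCND1, CDKN1A, PRMT1, PRMT5, SMARCC1, EIF2AK3, ATF6, HSP90B1, CALR and CANX were named after their values were seen. Some listed symbols, among them LHX1, CD24, PECAM1 and NEFL, had no match in the table.

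The interaction of genotype and tunicamycin was fitted over 12 libraries of both genotypes. Alternatives were other normalizations, DESeq2's Wald test, other filters, 1 fit over all 18 libraries, a replicate block, another prior count, a stricter FDR (1%), a minimum fold change of 2, and leaving out each library. Class counts at a mean log2 CPM of at least 4 were added after the data were seen. On simulated data of 15803 genes the test recovered 91% of 100 planted 2-fold and all of 100 planted 4-fold changes, and 6.37% of its calls were false. Changes were planted only in genes above a minimum level, all other genes were unchanged, and the dispersion was set by a formula. In the real comparison 76.9% of genes were called, so that these rates do not carry over to it. The CUT&RUN data, splicing and protein were not analysed here, and some genes are not reported.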

Additional observations from a re-analysis of the deposited data

Results flagged for a closer look

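For some genes the difference between knockout and control cells itself differed between vehicle and tunicamycin, tested as the interaction of genotype and treatment in edgeR over 12 libraries. Of 315 genes named by the rule, the interaction passed for 110 (34.9%) with Benjamini-Hochberg adjustment, beside 3997 of all 16956 genes tested (23.6%). The named genes were chosen largely by the size of their fold change, so that nothing is read from the difference between these shares. HSPA5 was lower in knockout cells with vehicle (log2 difference −0.35) and higher with tunicamycin (0.32), an interaction of 0.68 (adjusted p 9.38e-10). SEC24D was the reverse, at 1.44 with vehicle and −0.21 with tunicamycin, an interaction of −1.64 (adjusted p 2.01e-08). XBP1 was at −0.41 with vehicle and −0.03 with tunicamycin, an interaction of 0.37 (adjusted p 0.0297). CARM1 was at −1.11 and −0.90, an interaction of 0.21 (adjusted p 0.0487), and DNAJB9 had an interaction of −0.37 that did not pass (adjusted p 0.0857). Adjusted p-values are from edgeR's quasi-likelihood test with Benjamini-Hochberg adjustment, and the vehicle values differ slightly from those of the 6 libraries because normalization and filter were set over 12.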

How the results depend on the processing

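With DESeq2's size factors, 6457 genes were higher and 5913 lower, with library totals alone 5448 and 7218, with upper quartile normalization 6078 and 6346, with DESeq2's Wald test 6555 and 5596 of 21439, and with all 18 libraries in 1 fit 6732 and 6156. With a fold change of at least 2, 3557 were higher and 2880 lower. Without a filter, 1874 genes were at least 4-fold lower, and with 10 counts in every library 665 were at least 4-fold higher and 420 lower, fewer genes being tested. With 0 counts required in the other genotype, 37 genes were found in knockout libraries only and 21 in control libraries only, and with a mean of at least 1 CPM these were 781 and 368. Leaving out each library in turn gave 6061 to 6493 higher and 5844 to 6013 lower genes, 2151 to 2289 and 1257 to 1385 past 4-fold, 192 to 231 found in knockout and 72 to 83 in control libraries only, and −1.20 to −1.15 for CARM1.

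Class medians moved by more than the typical replicate spread of a single member gene for 26 of 64 classes with library totals alone. They did so for 23 of 61 with 10 counts in every library, and for at most 3 under any other alternative. That yardstick, the median over members of the replicate SDs of both groups combined, is not the spread of a class median. Classes with steadier members therefore passed it more readily. With library totals alone the medians of XBP1s targets, reported CARM1 substrates, receptor tyrosine kinases, proteasome, respiratory chain, glycolysis and cholesterol genes turned negative (−0.12, −0.08, −0.05, −0.09, −0.02, −0.04 and −0.09). With 10 counts in every library those of forkhead genes, cadherins and P450 genes did so (−0.32, −0.38 and −0.46), the members seen in only 1 group being left out. The causes of the other shifts were not tested. Of the genes named, HSP90B1 was −0.07 with library totals alone.

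Replicates of the 2 genotypes share numbers, but the correlations of their deviations were 0.02, −0.03 and −0.00, so that the numbers were not taken as pairs. The fit with the replicate number as a block called 6166 higher and 6000 lower genes.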

Other observations

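Of other classes, the list of cancer-testis antigens had 17 tested of 127 listed, with 11 higher and 5 lower (94.1% called, beside 76.9% of all genes tested). Whether each listed gene is normally kept to germ cells was not checked. The 8 members at a mean log2 CPM of at least 4 summed to 474.2 to 495.5 CPM in control and 463.8 to 492.5 in knockout libraries. CT45A1 had 0, 1 and 0 counts in control and 787, 753 and 467 counts in knockout libraries, CTCFL rose from 1.49 to 119 CPM (log2 fold change 6.32), and TEX15 fell from 153 to 3.71 CPM (−5.39). MAGEB2 had 468, 504 and 638 counts in control libraries and 0 in each knockout library. The genes given here were named for large fold changes or as found in 1 genotype only, so that they do not describe the list. Imprinted genes, read from 1 parental copy, had 11 higher and 9 lower of 20 tested of 27, with PHLDA2 rising from 5.91 to 349 CPM (5.88) and MEST falling from 704 to 48.8 CPM (−3.86). TUBB3, a tubulin of neurons and of some carcinomas, rose from 5.89 to 142 CPM (4.59), and L1CAM, a neural adhesion molecule, from 0.597 to 120 CPM (7.65). Lysosomal genes had 24 higher and 11 lower of 41 tested of 43, with CTSZ, a cathepsin, rising from 20.9 to 230 CPM (3.46).

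Genes high in one group were often not at 0 in the other, and their residue varied by library. For 76 genes with at least 100 CPM in knockout cells and under 1% of that in control cells, a set chosen after the data were seen, the median residue was 0.0939% of the knockout mean in control library 1, 0.317% in control library 2 and 0.231% in control library 3. Control library 1 was the lowest of the 3 for 57 of the 76 genes and control library 2 the highest for 41. For 35 genes high in control cells by the same measure, the median residue was 0.0715, 0.143 and 0.0654% in knockout libraries 1 to 3. What this residue came from was not tested.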
